A study of Mus musculus with 8 samples.

Results

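Nucleolar ribosome biogenesis factors are the proteins that make, modify, cut and fold ribosomal RNA inside the nucleolus. The 39 genes described here were taken from a list of such factors by gene name, out of 20660 genes named on the array, and a probe stood for a gene where its RefSeq accession belonged to that gene. All 39 were on the array, with 60 probes, and all 39 were bright enough to be tested in both muscles.

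Transcript levels were measured in gastrocnemius and tibialis anterior (TA) of untreated male C57BL6 mice, 8 to 16 weeks old, that were either heterozygous for Eif6 (Eif6+/-, Het) or wild type (WT). There were 8 arrays, 4 for each muscle, and each carried RNA of 1 Het mouse in Cy5 and of 1 age-matched WT mouse in Cy3, with the mice paired at random, so that a log2 ratio above 0 means more transcript in Het. The direction follows the sample labels, since the methods mention Cy3 labelling alone, and because no array had the dyes exchanged, a probe's preference for a dye and the genotype cannot be told apart within a muscle. All arrays lay on 1 slide with a row for each muscle, so an effect of the row would look like an effect of the muscle. The labels do not say whether a pair number marks the same mice in both muscles. Whole muscle was used, where fewer cells of a type and less RNA per cell cannot be told apart. Between 38.8% and 48.6% of the probes on an array stood well above background in a channel.

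Ribosome assembly starts when RNA polymerase I transcribes a long precursor RNA, which small nucleolar ribonucleoproteins (snoRNPs) methylate and pseudouridylate. Separate sets of factors then build the small and the large subunit from it. eIF6, the product of Eif6, binds the growing large subunit in the nucleolus, is needed for its maturation, and must leave before the finished large subunit can join the small one in translation.

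The targeted gene was measured as a check of the labels. The log2 ratios of Eif6 were -0.97, -1.15, -0.89 and -1.06 on gastrocnemius arrays 1 to 4, and -1.22, -1.03, -0.95 and -0.80 on TA arrays 1 to 4. It was lower in Het on all 8 arrays. The mean was -1.02 ± 0.11 (SD, n = 4) in gastrocnemius and -1.0 ± 0.17 (SD, n = 4) in TA, or 0.494 and 0.5 times the WT level (limma with Benjamini-Hochberg adjustment, adjusted p = 0.0239 and 0.0108). Its other probe gave -1.13 and -1.12. Without gastrocnemius array 3 or 4 Eif6 no longer passed there (limma, adjusted p = 0.121 and 0.157), and in TA it passed under all 13 other settings.

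The nucleolar factors past the test were counted beside all genes. At an adjusted p under 0.1 (limma), 5 of 39 members were higher in Het gastrocnemius (12.8%), where 9.87% of all 12608 genes tested were higher, and 1 was lower (2.56%), beside 5.55% of all genes. In TA, 3 members were higher (7.69%), beside 8.98% of 12380 genes, and 3 were lower (7.69%), beside 7.27% of genes. The median log2 ratio of the members was -0.005 in gastrocnemius and 0.03 in TA, against 0.02 and 0.019 over all genes tested. On single arrays the members' median lay between -0.038 and 0.023.

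The members past the test were Pes1, Wdr12, Brix1, Gtpbp4 and Nip7 (higher) and Ncl (lower) in gastrocnemius, and Pes1, Brix1 and Wdr12 (higher) and Rrp9, Nle1 and Ncl (lower) in TA. Calls depended on single arrays: without gastrocnemius array 3 or 4, 0 of all genes passed in that muscle by limma (2443 and 2680 at an unadjusted p under 0.05), and without TA array 1, 68 genes and 0 members passed in TA. Pes1 in gastrocnemius then read 0.83 without array 3 and 0.79 without array 4 (limma, adjusted p = 0.121 and 0.157). SAM called 5 members higher and 2 lower in gastrocnemius, and 4 higher and 3 lower in TA, beside 3461 higher and 1877 lower of 23791 probes in gastrocnemius and 2442 and 2217 of 23384 in TA.

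**Figure D1:**
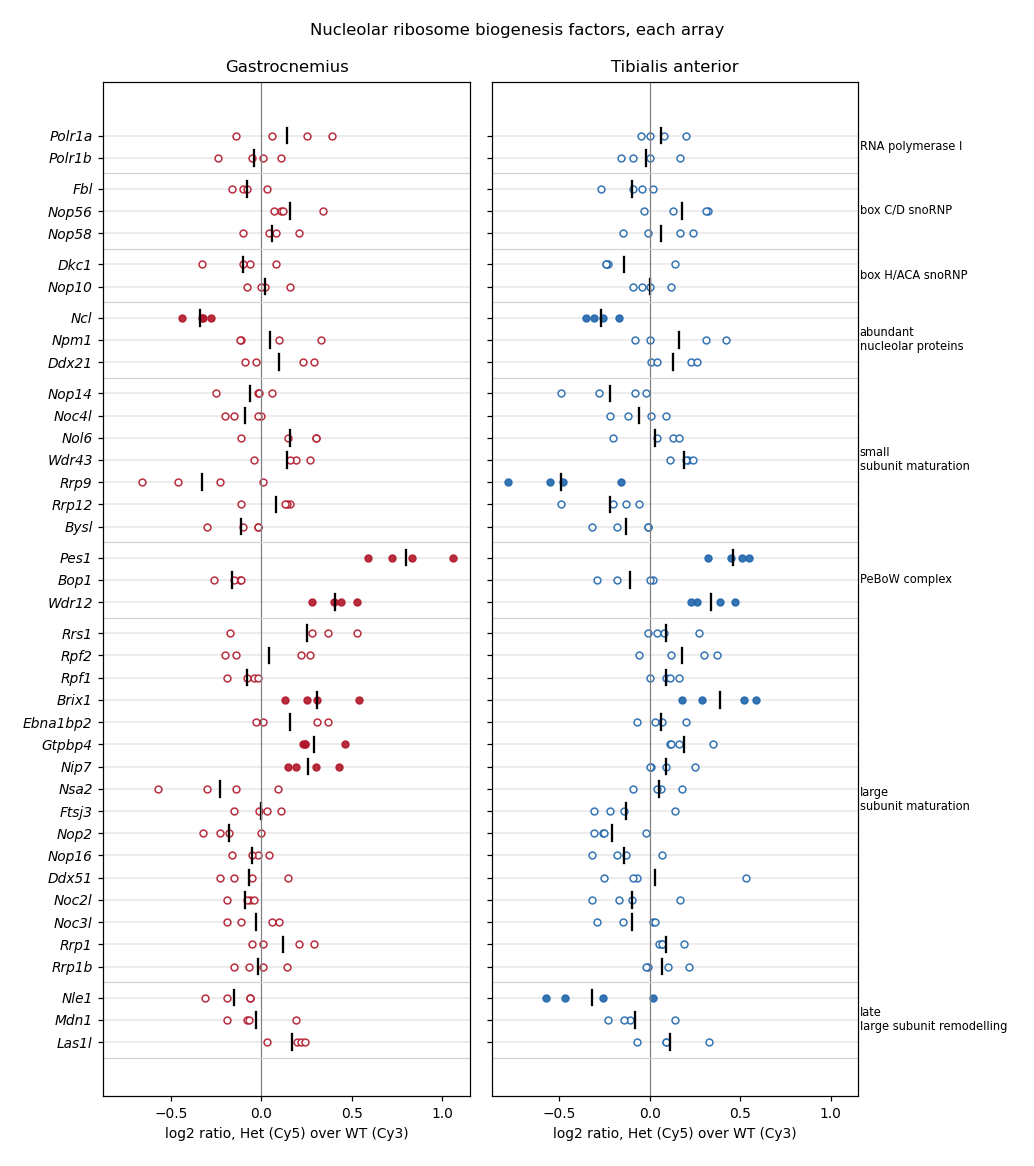
Log2 ratio of Het over WT (x axis) for each of the 39 members (1 line per gene, grouped by role) on the 4 arrays of each muscle; circles are arrays, filled where the member passed limma at an adjusted p under 0.1, and black bars are means. Pes1 stands apart in gastrocnemius, between 0.59 and 1.06, and most other members scatter around 0.

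**Figure D2:**
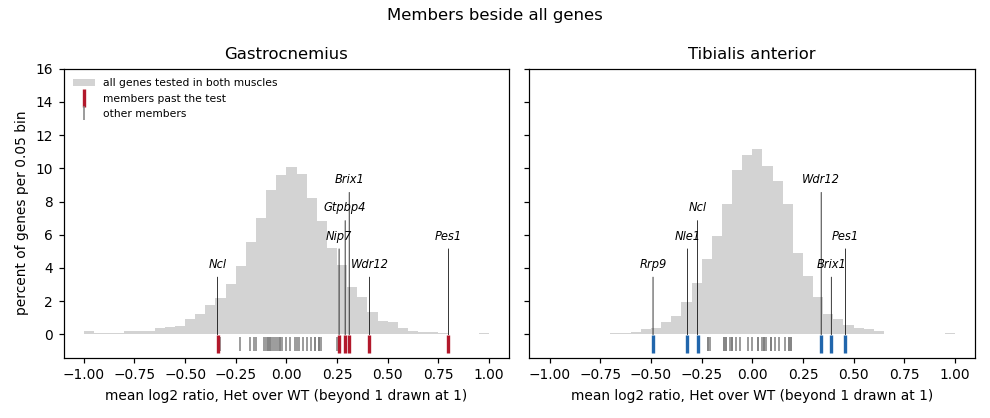
Mean log2 ratio of Het over WT (x axis) for all 12204 genes tested in both muscles (grey bars, percent of genes per bin) and for the 39 members (ticks; coloured and named where past the test). The ticks cover the middle of the distribution, with medians of -0.005 and 0.03.

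Sequences before and around the annotated start were read for the 6 members called in TA, which include Pes1, Wdr12, Brix1 and Ncl of those called in gastrocnemius, to show what stands upstream of genes whose brightest probes were called higher or lower. They are RefSeq promoter sequences of build GRCm38.p6, 120 bases before the start and 30 from it on, and capitals mark the E-box CACGTG, the motif bound by MYC with MAX. This motif reads the same on both strands. Pes1 lies at chr11:3963855-3964004 (plus strand), Wdr12 at chr1:60098471-60098620 (minus strand, the start farthest upstream of 3), Brix1 at chr15:10485908-10486057 (minus strand), Ncl at chr1:86359426-86359575 (minus strand), Rrp9 at chr9:106477189-106477338 (plus strand) and Nle1 at chr11:82908366-82908515 (minus strand).
Pes1: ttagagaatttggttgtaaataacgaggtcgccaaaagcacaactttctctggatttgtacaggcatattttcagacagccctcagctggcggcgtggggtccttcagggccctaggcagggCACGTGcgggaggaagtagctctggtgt
Wdr12: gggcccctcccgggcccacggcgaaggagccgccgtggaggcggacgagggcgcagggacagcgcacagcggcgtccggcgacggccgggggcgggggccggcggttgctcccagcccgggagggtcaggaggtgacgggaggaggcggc
Brix1: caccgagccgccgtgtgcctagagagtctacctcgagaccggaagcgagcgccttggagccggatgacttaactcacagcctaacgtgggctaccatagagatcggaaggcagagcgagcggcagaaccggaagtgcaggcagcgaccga
Ncl: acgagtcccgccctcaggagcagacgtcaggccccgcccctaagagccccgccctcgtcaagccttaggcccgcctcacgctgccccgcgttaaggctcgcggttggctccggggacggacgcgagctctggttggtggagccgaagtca
Rrp9: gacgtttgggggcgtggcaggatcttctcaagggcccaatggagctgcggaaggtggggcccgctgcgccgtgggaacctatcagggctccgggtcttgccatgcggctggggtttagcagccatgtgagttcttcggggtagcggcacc
Nle1: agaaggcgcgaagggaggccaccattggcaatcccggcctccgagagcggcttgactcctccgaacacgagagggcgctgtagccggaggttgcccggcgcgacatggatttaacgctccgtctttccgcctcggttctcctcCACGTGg
Pes1 and Nle1 each held an E-box just after the start, and the other 4 sequences held none. Of 32 members with an entry in the promoter table, 6 held CACGTG in the full window of 250 bases before and 50 after a start, namely Pes1, Nle1, Nop2, Rpf2, Mdn1 and Wdr43, which comes to 7 of the 37 windows of members. Over all genes 2349 of 32851 such windows (7.15%) held it, and 4.47% of windows cut to the printed length. Among the 6 with the motif were genes above and below 0 in the arrays.

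The members that act at the start of the pathway did not pass by their brightest probes, and a dimmer probe of Nop56 was lower in TA, at -0.35 (limma, adjusted p = 0.0381). Polr1a and Polr1b, the large catalytic subunits of RNA polymerase I, had mean log2 ratios of 0.14 and -0.04 in gastrocnemius and 0.06 and -0.02 in TA. Fbl, the methyltransferase of box C/D snoRNPs, gave -0.08 and -0.10, and its core partners Nop56 and Nop58 gave 0.16 and 0.06 in gastrocnemius and 0.18 and 0.06 in TA. Dkc1, the pseudouridine synthase of box H/ACA snoRNPs, gave -0.10 and -0.14, and Nop10, a small core protein of the same particles, gave 0.02 and 0.00. These 7 genes thus spanned -0.10 to 0.16 in gastrocnemius and -0.14 to 0.18 in TA.

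Among the abundant nucleolar proteins, Ncl (nucleolin, an RNA-binding protein of early precursor RNA) was lower in Het. Its log2 ratios were -0.32, -0.33, -0.44 and -0.28 on the gastrocnemius arrays and -0.26, -0.31, -0.35 and -0.17 on the TA arrays. All 8 arrays were below 0 and the values lay close together. The means were -0.34 ± 0.069 (SD, n = 4, limma, adjusted p = 0.0456) and -0.27 ± 0.079 (SD, n = 4, adjusted p = 0.0546). A dimmer probe of Ncl pointed the other way, at 0.14 ± 0.10 and 0.17 ± 0.20 (SD, n = 4), and passed in neither muscle (limma, adjusted p = 0.277 and 0.253). The mean log2 level of this probe was 6.89, against 11.67 for the brightest. With both probes averaged, Ncl gave -0.10 and -0.05 and no longer passed (limma, adjusted p = 0.372 and 0.668, the highest of 13 other settings, with 0.0328 and 0.0386 the lowest). The gastrocnemius call was also lost without array 3 or 4 (0.163 and 0.169) and the TA call without array 1, 2 or 3 (0.2, 0.157 and 0.138). Agilent's processed signals lost both calls (0.105 and 0.115) and offset 0 the TA call (0.113). Npm1 (nucleophosmin, a histone and ribosomal protein chaperone) gave 0.05 in gastrocnemius and 0.16 in TA, and Ddx21, an RNA helicase of the nucleolus, gave 0.10 and 0.13; neither passed. The 5 probes of Npm1 spanned -0.23 to 0.05 in gastrocnemius and -0.08 to 0.17 in TA.

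Of the 7 members of small subunit maturation, Rrp9 passed the test as lower in TA (14.3%, beside 7.27% of all genes), and 0 passed in gastrocnemius. Rrp9 is a protein of the U3 snoRNP, which guides the early cuts in the precursor. Its log2 ratios on the TA arrays were -0.78, -0.55, -0.48 and -0.16, all below 0, with a mean of -0.49 ± 0.26 (SD, n = 4, 0.711 times WT; limma, adjusted p = 0.0348). On the gastrocnemius arrays they were 0.01, -0.66, -0.23 and -0.46, a mean of -0.33 ± 0.29 (SD, n = 4) that did not pass (limma, adjusted p = 0.123). Array 1 alone stood at 0 in gastrocnemius, and SAM, or limma without that array, placed Rrp9 among the lower genes there. By limma it was not called in gastrocnemius under the other settings, among them the omission of array 2, 3 or 4. The TA call was lost without array 1 or 2 (limma, adjusted p = 0.178 and 0.107) and with Agilent's processed signals (0.101), and its adjusted p ran from 0.0264 to 0.178 over 13 other settings. The other 6 members did not pass by limma, although Wdr43 was called higher in TA by SAM, and by limma with loess alone or without the filter on dim probes. They are Nop14, Noc4l, Nol6 and Wdr43, which belong to the small subunit processome, and Rrp12 and Bysl, which stay with the particle on its way to the cytoplasm. Their means ran from -0.11 (Bysl) to 0.16 (Nol6) in gastrocnemius, and in TA from -0.22 (Nop14 and Rrp12) to 0.19 (Wdr43).

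The PeBoW complex, which is needed to process the precursor of the large subunit's RNA, consists of Pes1, Bop1 and Wdr12. Pes1, its BRCT-domain subunit, gave the highest mean of the brightest probes of the 39 members in both muscles, although Brix1 stood above it on TA arrays 1 and 2. The log2 ratios were 0.59, 1.06, 0.72 and 0.83 on the gastrocnemius arrays and 0.45, 0.55, 0.32 and 0.51 on the TA arrays. Every gastrocnemius array exceeded every TA array. The means were 0.80 ± 0.20 (SD, n = 4, 1.75-fold; limma, adjusted p = 0.0268) and 0.46 ± 0.10 (SD, n = 4, 1.37-fold; adjusted p = 0.0184).

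Wdr12, a WD40-repeat protein that holds the complex to the precursor particle, was higher as well. Its log2 ratios were 0.53, 0.40, 0.28 and 0.44 in gastrocnemius and 0.26, 0.39, 0.23 and 0.47 in TA. The arrays of the muscles overlapped, and all 8 lay above 0. The means were 0.41 ± 0.10 (SD, n = 4, 1.33-fold; limma, adjusted p = 0.0359) and 0.34 ± 0.12 (SD, n = 4, 1.26-fold; adjusted p = 0.0389). Bop1, the subunit that bridges its partners, passed in neither muscle. It read -0.12, -0.15, -0.26 and -0.11 in gastrocnemius and -0.29, 0.02, -0.18 and 0.00 in TA, with means of -0.16 ± 0.070 and -0.11 ± 0.15 (SD, n = 4, limma, adjusted p = 0.205 and 0.387). The calls of Wdr12 were lost without gastrocnemius array 3 or 4 (limma, adjusted p = 0.125 and 0.165) and without TA array 1 or 2 (0.157 and 0.121). Over 13 other settings the mean of Wdr12 ran from 0.37 to 0.61 in gastrocnemius and from 0.29 to 0.47 in TA. In gastrocnemius it was 0.59 with offset 0 and 0.61 with Agilent's processed signals. Whether Bop1 differed from its partners was not tested.

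The Pes1 result rested on 1 of its probes. The dimmer probe gave 0.04 ± 0.19 in gastrocnemius and -0.17 ± 0.059 in TA (SD, n = 4, limma, adjusted p = 0.811 and 0.146). With both averaged, Pes1 gave 0.42 in gastrocnemius, past the test, and 0.14 in TA, where it was not (limma, adjusted p = 0.199). The TA call was also lost without array 1 (0.114), and over 13 other settings the adjusted p of Pes1 ran from 0.0188 to 0.157 in gastrocnemius and from 0.00996 to 0.199 in TA. Wdr12 and Bop1 had a single probe each, so no such comparison could be made for them.

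Large subunit maturation was the largest role, with 16 members, of which 3 were higher in gastrocnemius (18.8%, beside 9.87% of all genes) and 1 in TA (6.25%, beside 8.98%). Brix1, which with Rpf and Rrs proteins helps fold the RNA of the early large subunit, was higher in both. It read 0.13, 0.54, 0.31 and 0.25 in gastrocnemius and 0.52, 0.59, 0.29 and 0.18 in TA. All 8 arrays lay above 0, with means of 0.31 ± 0.17 (SD, n = 4, limma, adjusted p = 0.0809) and 0.39 ± 0.20 (SD, n = 4, adjusted p = 0.0399). Its dimmer probe had the same sign, at 0.33 ± 0.046 (adjusted p = 0.0456) and 0.11 ± 0.024 (adjusted p = 0.296) by limma. The call of Brix1 was lost without gastrocnemius array 2, 3 or 4 (limma, adjusted p = 0.175, 0.228 and 0.216) and without TA array 1 or 2 (0.196 and 0.13). In gastrocnemius it was also lost with offset 0 and with Agilent's processed signals (0.125 and 0.132).

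Gtpbp4, a GTPase of the nucleolar large subunit, read 0.24, 0.24, 0.46 and 0.23 in gastrocnemius and 0.11, 0.35, 0.12 and 0.16 in TA. It was above 0 on all 8 arrays and passed in gastrocnemius, at 0.29 ± 0.11 (SD, n = 4, limma, adjusted p = 0.0672) beside 0.19 ± 0.11 in TA (adjusted p = 0.142). Nip7, which joins the particle to let the precursor be cut, read 0.19, 0.43, 0.15 and 0.30 in gastrocnemius and 0.25, 0.09, 0.01 and 0.00 in TA. Its mean was 0.26 ± 0.12 (SD, n = 4, limma, adjusted p = 0.0899) in gastrocnemius and 0.09 ± 0.11 in TA (adjusted p = 0.477). The difference between the muscles passed for neither gene, at 0.11 for Gtpbp4 and 0.18 for Nip7 (limma, adjusted p = 0.796 and 0.677). Nip7 was the least firm of these calls, as it was lost under 8 of 13 other settings, among them the omission of any gastrocnemius array (limma, adjusted p = 0.118, 0.198, 0.186 and 0.263 without arrays 1 to 4). Gtpbp4 was lost without array 2, 3 or 4 (0.111, 0.221 and 0.194), and it was called in TA with loess alone and with the deposited log2 ratios.

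By limma on their brightest probes, the other 13 members of this role passed in neither muscle. Nop2 was called lower in TA without the filter on dim probes, and a dimmer probe of Rrp1 passed as lower in both muscles. In gastrocnemius the brightest probes of the 13 ran from -0.23 (Nsa2, a factor of the late nucleolar particle) to 0.25 (Rrs1, which brings the small RNA of the large subunit into the particle with Rpf2). In TA they ran from -0.21 (Nop2, an RNA methyltransferase) to 0.18 (Rpf2). Between these ends lay Rpf1, Ebna1bp2, Ftsj3, Nop16, Ddx51, Noc2l, Noc3l, Rrp1 and Rrp1b. The median of all 16 was -0.012 in gastrocnemius and 0.065 in TA.

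Late remodelling of the large subunit was covered by Nle1, Mdn1 and Las1l. Nle1 docks the giant ATPase Mdn1 on the particle, and Las1l is an endonuclease that cuts the internal spacer. Nle1 read -0.57, -0.26, -0.47 and 0.02 on the TA arrays, a mean of -0.32 ± 0.26 (SD, n = 4, limma, adjusted p = 0.0892), and -0.19, -0.31, -0.06 and -0.06 on the gastrocnemius arrays, a mean of -0.15 ± 0.12 (SD, n = 4, adjusted p = 0.252). Nle1 was below 0 on all arrays but TA array 4, and the TA call was lost under 8 of 13 other settings, including the omission of array 1, 2 or 3 (limma, adjusted p = 0.329, 0.177 and 0.208). Mdn1 gave -0.03 and -0.08 and was well above background in WT on 3 of the 4 gastrocnemius arrays. Las1l gave 0.17 ± 0.097 and 0.11 ± 0.17 (SD, n = 4), and neither gene passed.

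Probes of the same gene were set side by side, because a gene stands here by its brightest probe. Of the 13 members with several probes, 11 had more than 1 that could be tested. All probes shared a sign for 5 of these 11 in gastrocnemius and for 3 in TA. Besides Pes1 and Ncl, probes disagreed in Nop56, Rrp1 and Nsa2, among others. The 6 probes of Nsa2 spanned -0.23 to 0.16 in gastrocnemius and -0.15 to 0.19 in TA, and its brightest probe was the lowest in gastrocnemius. The dimmer probe of Nop56 gave -0.23 ± 0.16 in gastrocnemius and -0.35 ± 0.13 in TA (SD, n = 4, limma, adjusted p = 0.148 and 0.0381), where the brightest gave 0.16 and 0.18. The dimmer probe of Rrp1, a factor of early large subunit particles, gave -0.28 ± 0.11 and -0.26 ± 0.14 (SD, n = 4, limma, adjusted p = 0.0754 and 0.0764), where the brightest gave 0.12 and 0.09. Mean log2 levels of the dimmer and the brightest probe were 6.89 and 11.67 for Ncl and 7.2 and 8.45 for Pes1. They were 8.9 and 10.39 for Nop56 and 9.81 and 11.75 for Rrp1. Probes of a gene can differ in level, in the transcript forms they bind and in dye preference, and which applied was not tested.

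**Figure D3:**
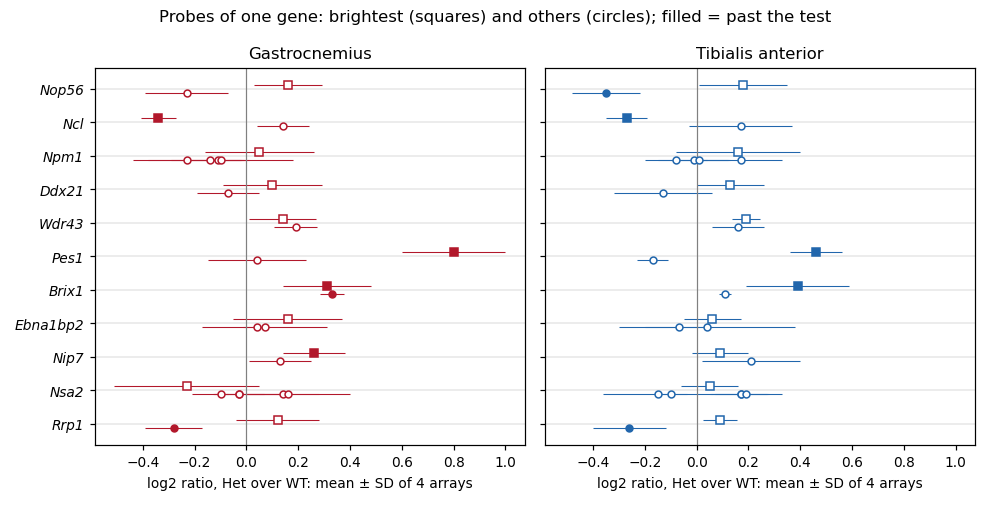
Mean log2 ratio of Het over WT (x axis; bars are ± SD of 4 arrays) of every tested probe of the 11 members with more than 1; squares are the brightest probes, circles the others, filled where past limma at an adjusted p under 0.1. Pes1 and Ncl show filled squares away from 0 and open circles nearer to or across 0.

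A dye preference of a probe drops out when the ratio in TA is taken from the ratio in gastrocnemius, provided that it is equal in both, which was not tested. By limma 0 of the 39 members, and 0 of 12204 genes (0%), differed between the muscles at an adjusted p under 0.1, while 2 members and 998 genes had an unadjusted p under 0.05. Those 2 members, named after their values were seen, were Pes1 and Rrp12. Pes1 differed by 0.35 ± 0.11 (SE, n = 8, limma, unadjusted p = 0.0117, adjusted p = 0.635). Rrp12 differed by 0.30 ± 0.12 (SE, n = 8, limma, unadjusted p = 0.026, adjusted p = 0.635). Rrp12 read 0.16, -0.11, 0.14 and 0.13 in gastrocnemius and -0.20, -0.06, -0.49 and -0.13 in TA, so that 1 gastrocnemius array fell among the TA arrays. The members' differences ran from -0.28 (Nsa2, whose other 5 probes gave -0.20 to 0.12) to 0.35 (Pes1).

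The muscles were also compared within each genotype, from the normalized log2 level of 1 dye, where each probe is set only against itself. In WT, 1 of 39 members was higher in TA than in gastrocnemius (2.56%; 14.1% of 11836 genes) and 1 was lower (2.56%; 8.74% of genes; limma, adjusted p under 0.1). With loess alone 739 of all genes were higher and 908 lower, and 0 members passed. In the main run the lower member was Ncl. Its WT levels were 11.94, 12.01, 12.01 and 12.03 in gastrocnemius and 11.55, 11.67, 11.65 and 11.76 in TA. The groups did not overlap, and the difference was -0.34 ± 0.074 (SE, n = 8, limma, adjusted p = 0.0194). The higher one was Las1l, with WT levels of 9.14, 9.18, 8.94 and 9.20 in gastrocnemius and 9.26, 9.35, 9.51 and 9.64 in TA. These groups did not overlap either, with a difference of 0.32 ± 0.10 (SE, n = 8, limma, adjusted p = 0.0654). The Las1l call was lost without gastrocnemius array 3 or without TA array 2, 3 or 4 (limma, adjusted p = 0.158, 0.101, 0.151 and 0.152), and also with loess alone, without the filter and with the pair number as a block (0.266, 0.102 and 0.113). That of Ncl held in 14 of 15 other settings and was lost with loess alone (-0.28, adjusted p = 0.175). Dimmer probes of Rrp1 and Brix1 passed between the WT muscles too, at -0.31 and 0.24 (limma, adjusted p = 0.0399 and 0.0584). Markers of other cells differed between the WT muscles as well. In TA 5 of 8 macrophage, 5 of 7 fibroblast and 4 of 5 adipocyte markers were lower, with median differences of -0.884, -1.058 and -2.381. Of proliferation markers 2 of 6 were lower (Mki67 and Ccna2, median -0.356), and of 6 endothelial markers 1 was higher and 1 lower. The 11 skeletal muscle markers ran from -0.42 to 1.45, with Myh1 and Mb past the test as higher. The part of these genes in the values of Ncl and Las1l was not tested.

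In Het, 2 members were higher in TA (5.13%, beside 9.98% of 12609 genes) and 3 were lower (7.69%, beside 6.73% of genes). With loess alone 337 of all genes were higher and 495 lower. The 2 higher members in the main run were Las1l, by 0.26 ± 0.089, and Brix1, by 0.20 ± 0.065 (SE, n = 8, limma, adjusted p = 0.0958 and 0.0888). The 3 lower were Pes1, Rrp12 and Ncl, which like the former were named after their values were seen. The Het levels of Pes1 were 8.91, 9.02, 8.88 and 8.92 in gastrocnemius and 8.67, 8.59, 8.46 and 8.63 in TA. Het gastrocnemius was above Het TA on every array, by a difference of -0.34 ± 0.067 for TA minus gastrocnemius (SE, n = 8, limma, adjusted p = 0.019). In WT the levels of Pes1 were 8.31, 7.96, 8.15 and 8.08 in gastrocnemius and 8.22, 8.04, 8.14 and 8.13 in TA, a difference of 0.01 ± 0.090 (SE, n = 8, limma, adjusted p = 0.977).

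Rrp12 had the same arrangement. Its Het levels were 8.42, 8.35, 8.30 and 8.41 in gastrocnemius and 8.10, 8.17, 8.02 and 8.05 in TA, which did not overlap (difference -0.29 ± 0.062, SE, n = 8, limma, adjusted p = 0.0264). Its WT levels were 8.26, 8.46, 8.16 and 8.28 in gastrocnemius and 8.30, 8.23, 8.51 and 8.17 in TA, which did (difference 0.01 ± 0.098; adjusted p = 0.946). Between the Het muscles 4 of 8 macrophage, 3 of 5 adipocyte, 2 of 4 red blood cell and 4 of 4 Schwann cell markers were lower in TA (median differences -0.277, -1.544, -0.369 and -0.551). So was 1 of 7 fibroblast markers (median -0.486), while Fabp4, the brightest adipocyte marker, was higher by 0.28. The 11 skeletal muscle markers ran from -1.99 to 0.53, with Myh1 past the test as higher and Myh2 as lower. Of satellite cell markers 1 of 5 was higher (Myod1), and of endothelial markers 1 of 6 (Cdh5). The part of these genes was not tested. That a difference passed in Het and not in WT is not a test between the genotypes; the test of that kind is the contrast above, which neither gene passed. Ncl was lower in Het TA by a difference of -0.27 ± 0.081 (SE, n = 8, limma, adjusted p = 0.0698), as in WT. The Het calls of Pes1 and Rrp12 held under all 15 other settings, while that of Ncl was lost in 9 of 15 (limma, adjusted p up to 0.359), that of Las1l in 9 (up to 0.298) and that of Brix1 in 12 (up to 0.301). For these 3, leaving out any of 6 (Ncl, Las1l) or 7 (Brix1) of the 8 arrays was enough.

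**Figure D4:**
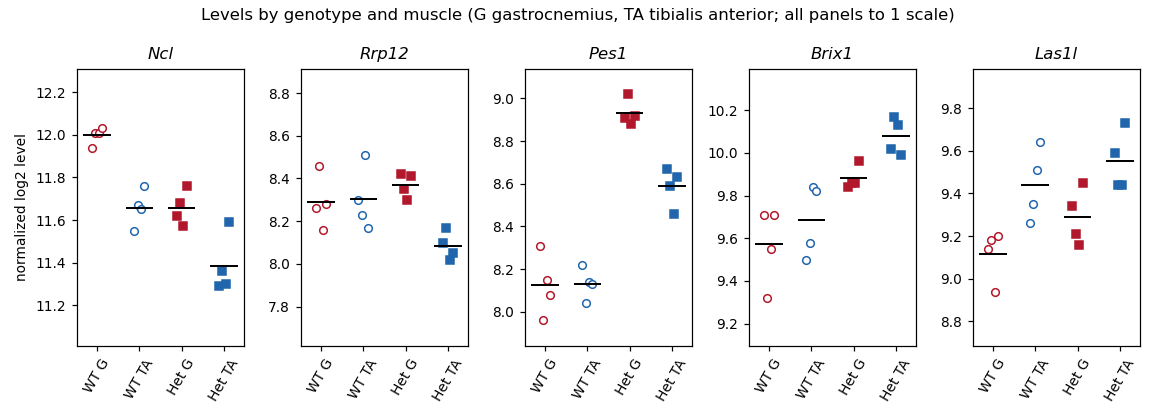
Normalized log2 level (y axis, all panels with the same span) on each array of the 5 members that differed between the muscles in WT or Het; open circles are WT (Cy3), filled squares Het (Cy5), red gastrocnemius, blue TA, and bars are means. Pes1 and Rrp12 separate by muscle in Het but not in WT, and Ncl is lower in TA in both genotypes.

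Other ribosome biogenesis factors were counted beside the members and all genes, of which 9.87% were higher and 5.55% lower in gastrocnemius and 8.98% and 7.27% in TA. In 5 further lists, which hold 144 genes on the array, 12 of 134 tested genes were higher and 0 lower in gastrocnemius by limma (32 at an unadjusted p under 0.05), with a median log2 ratio of 0.066. In TA 14 of 133 were higher and 6 lower, with a median of 0.034. By role, the counts in gastrocnemius and TA were as follows. Of other RNA polymerase I machinery 0 and 1 of 11 were higher (medians 0.003 and 0.016), the 1 being Ubtf, the upstream binding factor of ribosomal genes, at 0.48 ± 0.19 in TA (SD, n = 4, limma, adjusted p = 0.0255). Of other snoRNP proteins 3 and 2 of 10 were higher (medians 0.072 and 0.174). The snoRNP assembly factors Naf1 (0.46 and 0.35) and Znhit6 (0.39 and 0.48) passed in both muscles.

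Of other small subunit factors 2 of 49 and 3 of 48 were higher, and 0 and 2 lower (medians 0.044 and 0.028). Ltv1, which escorts the small subunit out of the nucleus, passed in both (0.28 and 0.31), Ddx49 in gastrocnemius (0.32) and Nol11 in TA (0.29), and Tbl3 and Ddx47 were lower in TA (-0.33 and -0.28). Of other large subunit factors 6 and 6 of 41 were higher and 0 and 3 lower (medians 0.033 and 0.000). Rbm34 gave 0.59 in both muscles, more than any member except Pes1 in gastrocnemius. The helicase Ddx24 (0.49) was next in gastrocnemius and Zfp593 (0.36) in TA, and Wdr18 and Nop53 were lower in TA (-0.46 and -0.35). Of the nucleases that process ribosomal RNA 1 and 2 of 23 were higher and 0 and 1 lower (medians 0.148 and 0.063): Exosc9, a subunit of the RNA exosome, gave 0.47 and 0.46, Pop7 gave 0.43 in TA, and Exosc4 gave -0.26 in TA.

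Among 7 genes of large subunit export and eIF6 release, 2 were higher in gastrocnemius and 1 in TA beside the lower Eif6 itself (medians 0.173 and 0.018). Xpo1, the export receptor, gave 0.30 in both muscles, and Efl1, the GTPase that releases eIF6, gave 0.30 in gastrocnemius. In the MYC network 2 of 8 genes were lower in gastrocnemius and 0 of 8 passed in TA (limma; 1 at an unadjusted p under 0.05), with medians of -0.108 and 0.064; the 2 were Mlxip (-0.47) and Myc (-0.30). The cytosolic ribosomal proteins, which the nucleolar factors build onto the RNA, were counted too. Of the 47 large subunit proteins 1 was higher (2.13%) and 8 lower (17%) in gastrocnemius, with a median of -0.077. In TA 10 were higher (21.3%) and 0 lower, with a median of 0.092. Rpl23 gave 0.36 and 0.56, Rpl14 gave 0.43 in TA, and Rpl3 (-0.75) and Rpl28 (-0.40) were lowest in gastrocnemius. Of the 32 small subunit proteins 0 were higher and 4 lower (12.5%) in gastrocnemius, and 5 higher (15.6%) and 2 lower (6.25%) in TA (medians -0.041 and 0.099). Among those that passed were Rps15 (-0.36) and Rps4x (-0.34) in gastrocnemius, and Rps24 (0.41), Rps2 (-0.30) and Rps9 (-0.20) in TA. All genes tested were higher at 9.87% and lower at 5.55% in gastrocnemius, and at 8.98% and 7.27% in TA. The genotype effect differed between the muscles for 0 of the 47 and 0 of the 32 by limma (7 and 4 at an unadjusted p under 0.05). Already in WT, 10 of the 47 (21.3%) and 6 of the 32 (18.8%) were lower in TA than in gastrocnemius, beside 8.74% of all genes.

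Markers were read to see what tissue and cells the arrays carried. All 11 skeletal muscle markers were well above background in all 16 channels, with Acta1 the brightest. In gastrocnemius 1 was higher (Myh1, 0.96) and 3 lower (Des, -0.68, Ckm, -0.37, and Actn3, -0.36). In TA 1 was higher (Myh4, 0.80) and 3 lower (Mb, -0.54, Des, -0.49, and Mylpf, -0.34). The 11 markers ran from -0.68 to 1.62 in gastrocnemius and from -0.54 to 0.80 in TA, and 8 and 4 had an unadjusted p under 0.05 (limma). The marker at 1.62 did not pass, and 1.62 was also the highest value of all genes tested in gastrocnemius. Dividing cells rely on ribosome production, and of the proliferation markers 0 of 9 were higher and 2 lower in gastrocnemius (Mki67, -0.78, and Ccna2, -0.46), and 0 of 7 higher and 1 lower in TA (Mcm2, -0.27). Satellite cell markers passed in neither muscle by limma (0 of 4 and 0 of 5; 1 and 0 at an unadjusted p under 0.05).

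Other cell types differed between the animals of a pair. The summed level of macrophage markers, Het over WT, was -1.18, 0.30, -1.37 and -0.08 (log2) on the gastrocnemius arrays and 0.28, -0.40, 0.25 and -0.12 on the TA arrays, a spread far beyond that of most members. Red blood cell markers gave -0.70, -1.20, -0.64 and -0.35 in TA, where 4 of 5 passed as lower, and 0.05, -0.50, -0.78 and -0.09 in gastrocnemius, where 0 of 4 did by limma (3 at an unadjusted p under 0.05). Of Schwann cell markers 3 of 4 were lower in TA, and 0 of 4 passed in gastrocnemius (limma; 0 at an unadjusted p under 0.05). Of adipocyte markers 2 of 5 were lower in gastrocnemius and 2 of 5 higher in TA, of fibroblast markers 1 of 7 was higher in TA, and of endothelial markers 2 of 6 were lower there. The summed fibroblast markers gave 0.02, 0.05, -1.35 and 0.32 in gastrocnemius and 0.26, -0.82, 2.13 and -0.20 in TA, and the adipocyte markers -0.49, -0.11, -0.42 and -1.4, and 0.01, -0.01, 0.68 and -0.20. Of macrophage markers 1 of 8 passed as lower in each muscle, but all 8 were below 0 in gastrocnemius (median -0.595) and 4 of 8 in TA (median 0.005). Of neutrophil markers 1 of 2 was lower in TA (S100a9, -1.61), and the other gave 0.12. The summed neutrophil markers gave 0.1, -0.07, 0.16 and 0.03 in TA and 0.39, 0.08, -0.33 and 0.4 in gastrocnemius. Of lymphocyte markers 0 of 2 passed in either muscle (limma, with 0 at an unadjusted p under 0.05). The part of these cells in the values of the nucleolar factors was not tested.

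With 4 arrays per muscle small differences can be missed, and a member short of the threshold is not shown to be unchanged. Dye preference and genotype cannot be told apart for Pes1, Wdr12, Brix1 and Ncl within a muscle, and probes of opposite sign leave the direction for Ncl in both muscles and for Pes1 in TA uncertain, as probes of unlike size do the extent for Pes1 in gastrocnemius. The arrays measured transcripts of the factors, while ribosomal RNA synthesis, precursor processing and the proteins were not analysed here. Members and comparison lists were chosen with earlier results of these data known.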

How the data were processed

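Gene expression was measured on 8 two-colour Agilent arrays of 62976 spots and 55681 probes, 4 for gastrocnemius and 4 for tibialis anterior (TA), each with 1 Het and 1 WT mouse. Per the file headers the raw files hold spot intensity from Feature Extraction 10.5.1.1, together with Agilent's log10 ratio of the processed signals. The authors deposited a table of log2 ratios, for which the paper's methods name quantile normalization. Its column medians were 0.00257 (gastrocnemius array 1), 0.000831 (2), -0.00441 (3), 0.00375 (4), and for TA 0.00138 (1), -0.000366 (2), 0.00288 (3), 0.00212 (4), so each column was centred near 0, and it correlated at r = 0.999963 to 0.999996 with loess of the uncorrected intensities, Het over WT. Here the median spot signals were background-corrected (limma 3.58.1 in R 4.3.3, normexp, offset 50), normalized by loess within arrays with control spots given no weight, then by quantiles across the 16 channels. Outlier spots (233 to 318 per array) were left out and repeated spots averaged. A probe entered the test of a muscle when each of the 4 arrays showed it well above background in Cy3 or Cy5, 23806 probes in gastrocnemius and 23397 in TA. Probes stood well above background at 43.6% to 48.6% in Cy5 and 38.8% to 46.0% in Cy3, and spiked-in controls gave slopes of 0.848 to 0.875 against the expected log ratios. limma (lmFit, eBayes) tested the ratios in each muscle, the difference between muscles, and TA against gastrocnemius within each dye, with Benjamini-Hochberg adjustment over the tested probes and a threshold of 0.1. SAM (one-class, all sign changes, written anew and tested on simulated data) was run on the genotype comparisons.

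Probes were joined to genes by RefSeq accession, which named 27235 of 28685 probes that carry one. A gene stands by its brightest probe. Members named with values are those past the threshold in a genotype or WT comparison, the complex partner Bop1 and the ends of each range. Values are also given for all members of the early steps, the abundant nucleolar proteins and late remodelling. Further ones are members whose probes were set side by side, those flagged for a closer look, and genes said to be named after their values were seen. Alternatives were loess alone, quantile normalization alone, offset 0, Agilent's processed signals, the deposited log2 ratios, uncorrected background, other filters, the mean over probes, an adjusted p under 0.05, SAM, the pair number as a block, and leaving out each array. The 39 members, 5 lists of other biogenesis factors, lists of export and eIF6 release genes, the MYC network, cytosolic ribosomal proteins and cell type markers were chosen with earlier results of these data known. Promoter sequences come from the RefSeq table of build GRCm38.p6.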

Additional observations from a re-analysis of the deposited data

Results flagged for a closer look

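Dixon's test was run on 80 groups of 4 log2 ratios (the members and Eif6) and on 20 groups of 4 levels (the 5 members that differed between the muscles; the levels of other members were not screened). It marked 5 values, and by chance alone it marks about 1 in 20 groups. Rrp12 had a log2 ratio of -0.11 on gastrocnemius array 2, against 0.13 to 0.16 on the others. Gtpbp4 read 0.46 on gastrocnemius array 3, against 0.23 to 0.24. Dkc1 read 0.14 on TA array 4, against -0.24 to -0.23. Rrp1 read 0.19 on TA array 3, against 0.05 to 0.07. Brix1 had a Het level of 9.96 on gastrocnemius array 4, against 9.84 to 9.86. Rpf1 separated the muscles: its ratio was below 0 on all 4 gastrocnemius arrays and at or above 0 on all 4 TA arrays, a difference of -0.17 that did not pass (limma with Benjamini-Hochberg adjustment, unadjusted p = 0.0761, adjusted p = 0.654). Its cause was not tested.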

How the results depend on the processing

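No log2 ratio or level difference of the members that passed, or of Eif6, changed sign under the 13 other settings run for the genotype comparisons or the 15 for the muscles; the other members were not followed one by one. Members higher in gastrocnemius numbered 5, and 3 with offset 0 and 3 with Agilent's processed signals (all genes 1245, 933 and 809). These members numbered 2 at an adjusted p under 0.05 and 0 to 4 with 1 array left out (all genes 0 to 1045). Members lower in gastrocnemius numbered 1, and 0 with Agilent's signals and 0 with the mean over probes (all genes 700, 395 and 566). They numbered 2 by SAM and 0 to 2 with 1 array left out (all genes 0 to 723 by limma). In TA 3 were higher, and 5 with loess alone (all genes 1112 and 1364) and 0 to 3 with 1 array left out (all genes 53 to 1100). There 3 were lower, and 1 with offset 0, 0 with Agilent's signals and 1 with the mean over probes (all genes 900, 523, 332 and 796). The lower members numbered 1 at an adjusted p under 0.05 and 0 to 3 with 1 array left out (all genes 15 to 929). The difference between the muscles held 0 members under every setting run by limma. The members' median in gastrocnemius was -0.005, and -0.033 with the mean over probes and -0.01 to 0.019 with 1 array left out. In TA it was 0.03, and 0.062 with loess alone, 0.058 with the deposited ratios, -0.002 with the mean over probes and 0.01 to 0.048 with 1 array left out.

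Between WT muscles 2 members differed, and 0 with loess alone and 1 without the filter (all genes 2702, 1647 and 2104). The members numbered 1 at an adjusted p under 0.05 and 1 to 4 with 1 array left out (all genes 1672 to 2758). Between Het muscles 5 differed, and 2 with loess alone, 2 with offset 0 and 2 without the filter (all genes 2107, 832, 1863 and 1498). They numbered 2 at an adjusted p under 0.05 and 2 to 4 with 1 array left out (all genes 977 to 2372). With the pair number as a block, 1 member differed in WT and 6 in Het; same-numbered arrays correlated at -0.145, 0.019, -0.356 and 0.09 in the deviations of their ratios, and at -0.376, 0.114, -0.071 and 0.192 in WT levels and 0.187, 0.015, 0.023 and 0.153 in Het levels. The labels do not say that the numbers mark the same mice, and the block was kept as an alternative. It lost Las1l in WT and Brix1 in Het, and added Ddx21 and Rpf2 in Het. Loess alone also turned the split of all genes: 739 higher and 908 lower in WT TA, against 1667 and 1035, and 337 and 495 in Het, against 1258 and 849. The cause was not tested. Fewer arrays give fewer degrees of freedom, and dim probes close to background limit what can be called.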
